A study of Mus musculus with 8 samples.

Results

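Transcripts that RefSeq lists as noncoding were taken from 8 RNA-seq tables of mouse bone marrow-derived stem cells. An entry was kept when its accession was of the noncoding class, its length was at least 200 bases and its FPKM was at least 5 in at least 4 of the 8 libraries. FPKM is the number of fragments per kilobase of transcript length after scaling for library size, so levels of different genes can be set side by side. Symbols that also had a coding entry, symbols with small RNA names, pseudogenes marked as such in their symbol, H19 and Meg3 were left out. By its name alone, each of Mir100hg and Mir22hg was also left out, although both met the limits of length and level. The FPKM of a symbol's entries were summed. This left 64 symbols from 69 entries, out of 1951 candidate symbols and 23500 symbols in all. Members were thus chosen by their FPKM over all 8 libraries, so the levels below are a description.

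All cells were p53 knockout and belonged to clonal lines 2, 4, 8 or 12. In the cFos group each line carried a retrovirus with the cFos cDNA, the transcription factor that pairs with Jun proteins as AP-1. In the Luc group each line carried a retrovirus with luciferase. Each clone gave 1 library per virus, at less than 20 passages, and polyadenylated RNA was sequenced. Both groups are labelled p53 knockout, each line is a single clone, and no line without a retrovirus is among the libraries. The labels do not say that the pairs are separate infections beyond the 4 clones, so p-values measure the spread between these clones.

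Long noncoding RNAs are transcripts with no long open reading frame that are often spliced and polyadenylated like mRNAs. Some build nuclear bodies, as Neat1 does for paraspeckles, some act on neighbouring genes, and many have no known role. A separate class hosts small nucleolar RNAs (snoRNAs) in its introns, and the spliced host RNA is often short-lived because cytoplasmic decay acts on it.

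Fos had 589, 675, 1019 and 505 FPKM in the cFos libraries of clones 2, 4, 8 and 12, against 76.2, 41.1, 302 and 43.5 FPKM in the Luc libraries, so every clone followed its virus label. Trp53, the gene of p53, was at 6.32 to 6.85 FPKM in cFos libraries and 6.17 to 9.28 FPKM in Luc libraries; the labels do not give the deleted part, so this level does not check the knockout. Estimated depth was 6.93 to 9.14 gigabases per library. The stromal markers summed to 7385 to 11037 FPKM in cFos libraries and 3669 to 6874 FPKM in Luc libraries, and 2 of 8 tested (Vim and Pdgfrb) rose. Thy1 and Nt5e, used to define these cells, were too low in most libraries to be tested. Blood markers summed to 1.63 to 2.57 FPKM in cFos libraries and 1.19 to 2.84 FPKM in Luc libraries. Endothelial markers summed to 0.163 to 0.374 FPKM in cFos libraries and 0.288 to 0.661 FPKM in Luc libraries, with Cdh5 at 0 in all 8. The part of the stromal markers in the results below was not tested. In such bulk samples, fewer cells with a transcript and less of it per cell cannot be told apart.

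By RefSeq's current gene types, 42 of the 64 were lncRNAs, 17 transcribed pseudogenes, 4 protein-coding genes (0610012G03Rik, 1810058I24Rik, 2610001J05Rik and Gm2115) and 1 the RNase P RNA. Their longest entries ran from 295 to 9833 bases, and 14 symbols had more than 1 entry. Together the members held 0.825% to 1.08% of a library's FPKM in cFos and 0.83% to 1.04% in Luc. The lncRNA type alone held 0.222% to 0.27% in cFos libraries and 0.188% to 0.257% in Luc libraries, ranges that overlap.

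Of the 10 highest levels, 5 belonged to pseudogenes. Gm12191 averaged 1343 ± 219 FPKM in cFos and 1373 ± 33.0 FPKM in Luc (SD, n = 4 each), and Gm15772 averaged 884 ± 208 FPKM in cFos and 766 ± 348 FPKM in Luc. Gm6793, Gm10052 and Gm12070 averaged 281, 179 and 145 FPKM over all 8 libraries. These values may not be the pseudogenes' own RNA. For 10 of the 17, the deposited table places the entry of highest mean on another chromosome than RefSeq does, against 0 of 42 for the lncRNA type. The entry of Gm12191 lies on chromosome 15 over Rpl30, a ribosomal protein gene, whereas RefSeq has the gene on chromosome 11. Gm15772 lies over Rpl26 on chromosome 11 and not on chromosome 5, Gm6793 over Hnrnpa3 on chromosome 2 and not on chromosome 8, and Gm10052 over Hnrnpa1 on chromosome 15 and not on chromosome 9. There, reads of the coding gene and of the pseudogene cannot be told apart.

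The highest lncRNAs included 2 of the 13 snoRNA hosts listed for this report, a list that may not hold every host. 2410006H16Rik, a listed host, averaged 192 ± 34.4 FPKM in cFos and 147 ± 19.6 FPKM in Luc. 1110038B12Rik, which the list does not hold, averaged 112 ± 18.96 FPKM in cFos and 104 ± 14.9 FPKM in Luc. Snhg1, the other listed host here, averaged 99.3 ± 22.4 FPKM in cFos and 87.8 ± 21.3 FPKM in Luc. Norad, a cytoplasmic RNA that binds Pumilio proteins, averaged 63.8 ± 5.18 FPKM in cFos and 70.7 ± 16.3 FPKM in Luc. 1810058I24Rik, typed as protein coding, averaged 85.6 ± 6.26 FPKM in cFos and 69.7 ± 9.56 FPKM in Luc. The arms of these 5 symbols differed by less than limma's threshold. At the lower end, E030011O05Rik and Morrbid were just inside the limit, reaching the required 4 libraries at 5.02 and 5.06 FPKM. 2810002D19Rik (4.997 FPKM) and Mtln (4.87 FPKM) were just outside it. Snhg16 and Snhg17 reach the level only once their entries are summed, and are not members.

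Between the arms, 4 members rose with cFos (Wincr1, E030011O05Rik, Pvt1 and 1110046J04Rik) and 2 fell (A730063M14Rik and Gm6548). The call was an adjusted p under 0.05 from limma without a clone term, so unpaired, adjusted over all 11161 genes tested. That is 9.38% of the 64, where 5.55% of all tested genes passed (2.92% higher and 2.63% lower). The share was 5.52% among the 8346 tested genes of the same level (2.77% higher and 2.76% lower). E030011O05Rik, Pvt1, Wincr1 and A730063M14Rik entered largely or wholly through the arm where they are high, so a difference was built into their selection. The same holds for Rian, Dubr, Gm14403 and 1700113A16Rik, which were not called. Among the 56 members with at least 5 FPKM in 2 or more libraries of each arm, 1110046J04Rik rose and Gm6548 fell, which is 3.57%. The calls rest on all 8 libraries. Without cFos clone 2, 4 or 8, limma called 0 members higher and 0 lower, with 9, 8 and 9 higher and 3, 4 and 2 lower at an unadjusted p under 0.05. With all 8 libraries, 10 members were higher and 2 lower at that p, as were 1011 and 1235 of the 11161 tested genes. Without cFos clone 12 only Gm6548 stayed, and without a Luc library 1 to 2 were called higher and 1 to 2 lower.

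**Figure D1:**
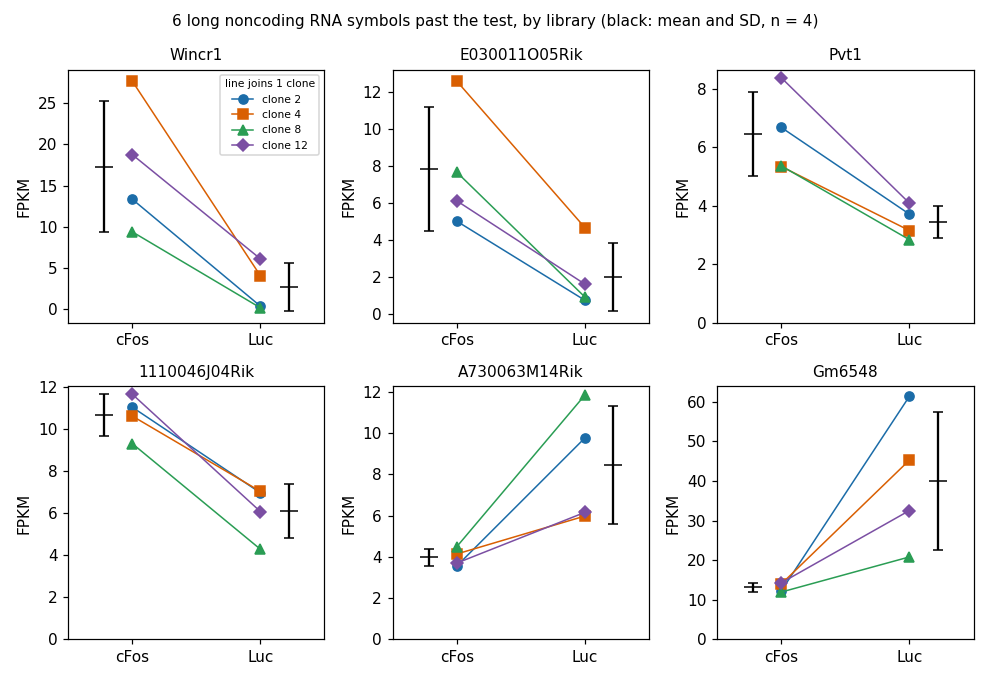
FPKM (y axes, linear, 1 scale per panel) of the 6 called members in the cFos (left) and Luc (right) libraries. A line joins the libraries of 1 clone and black bars give the mean and SD (n = 4). In each panel the lowest library of the higher arm lies above the highest library of the other arm.

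Wincr1 showed the largest rise. It is an RNA named for its induction by Wnt signalling in mouse dermal fibroblasts. It had 13.3, 27.6, 9.39 and 18.7 FPKM in the cFos libraries of clones 2, 4, 8 and 12, against 0.393, 4.07, 0.193 and 6.12 FPKM in the Luc libraries. Every cFos library was above every Luc library, but the Luc level itself split, with clones 4 and 12 well above clones 2 and 8. The log2 difference was 2.99 (SE 0.73, limma adjusted p = 0.0482). It was smallest in clone 12 at 1.54 and largest in clone 2 at 3.95.

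E030011O05Rik, a noncoding gene of unknown role, had 5.02, 12.6, 7.67 and 6.12 FPKM in the cFos libraries of clones 2, 4, 8 and 12. The Luc libraries had 0.761, 4.68, 0.936 and 1.63 FPKM. Clone 4 was the highest line in both arms, and its Luc library came close to the lowest cFos library. It rose by 1.90 on the log2 scale (SE 0.45, limma adjusted p = 0.0437), and by 1.34 to 2.51 by clone.

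Pvt1 is the noncoding neighbour of Myc. It is known for its co-amplification with Myc in tumours and, in mouse cells, for an isoform induced by p53. Pvt1 had 6.67, 5.33, 5.36 and 8.37 FPKM in the cFos libraries of clones 2, 4, 8 and 12, against 3.71, 3.15, 2.83 and 4.08 FPKM in the Luc libraries. The lowest cFos value stayed above the highest Luc value. The log2 difference was 0.80 (SE 0.18, limma adjusted p = 0.0386), with the narrowest spread of the 4 risers, 0.68 to 0.95 by clone. The tables hold 1 Pvt1 entry of 3074 bases, so isoforms were not separated.

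1110046J04Rik, of unknown role, had 11.04, 10.6, 9.31 and 11.7 FPKM in the cFos libraries of clones 2, 4, 8 and 12. The Luc libraries had 6.97, 7.04, 4.29 and 6.08 FPKM. The cFos values were close together and none reached down to a Luc value. It rose by 0.78 on the log2 scale (SE 0.17, limma adjusted p = 0.0329).

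A730063M14Rik, also of unknown role, had 3.56, 4.14, 4.49 and 3.70 FPKM in the cFos libraries of clones 2, 4, 8 and 12, against 9.76, 5.98, 11.8 and 6.15 FPKM in the Luc libraries. Its cFos level was even, and its Luc level was high in clones 2 and 8. It fell by 0.95 on the log2 scale (SE 0.22, limma adjusted p = 0.0439). The entry is only 329 bases long, and the authors' confidence intervals of the 2 arms were separate in 2 of 4 clones, against 4 of 4 for each of the other 5 called members.

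Gm6548, a transcribed pseudogene, had 12.3, 13.99, 12.0 and 14.3 FPKM in the cFos libraries of clones 2, 4, 8 and 12, against 61.4, 45.3, 20.8 and 32.6 FPKM in the Luc libraries. Again the cFos libraries lay within a narrow band and the Luc libraries were spread out. The log2 difference was -1.47 (SE 0.29, limma adjusted p = 0.0217), from -2.28 in clone 2 to -0.78 in clone 8.

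For 4 of the 6, the RefSeq windows around the first transcribed base are shown, since the cFos arm differs by an activator that binds DNA. Each runs from 250 bases before the start to 50 after it, 5′ to 3′ on the gene's strand in GRCm38.p6, with the first transcribed base in capitals. The windows are chr4:89050057-89050356 (+) for Wincr1, chr9:96752782-96753081 (-) for E030011O05Rik, chr13:33935782-33936081 (+) for 1110046J04Rik and chr10:127070231-127070530 (+) for A730063M14Rik.
Wincr1: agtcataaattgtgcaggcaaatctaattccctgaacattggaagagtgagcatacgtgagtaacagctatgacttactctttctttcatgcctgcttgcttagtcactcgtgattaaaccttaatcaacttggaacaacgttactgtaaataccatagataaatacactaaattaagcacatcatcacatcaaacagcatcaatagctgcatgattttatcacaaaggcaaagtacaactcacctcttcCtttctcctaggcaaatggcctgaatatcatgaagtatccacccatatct
E030011O05Rik: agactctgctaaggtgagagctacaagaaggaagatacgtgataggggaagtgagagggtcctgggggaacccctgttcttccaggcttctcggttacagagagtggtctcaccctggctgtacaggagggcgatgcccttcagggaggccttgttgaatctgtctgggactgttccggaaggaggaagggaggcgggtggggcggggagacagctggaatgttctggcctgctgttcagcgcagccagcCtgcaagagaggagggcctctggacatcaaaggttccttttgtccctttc
1110046J04Rik: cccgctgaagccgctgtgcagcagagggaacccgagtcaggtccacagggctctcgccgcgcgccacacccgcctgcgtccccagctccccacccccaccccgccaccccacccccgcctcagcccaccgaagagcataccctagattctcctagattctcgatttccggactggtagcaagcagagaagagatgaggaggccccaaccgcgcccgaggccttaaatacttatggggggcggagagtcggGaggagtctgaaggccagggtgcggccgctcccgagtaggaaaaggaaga
A730063M14Rik: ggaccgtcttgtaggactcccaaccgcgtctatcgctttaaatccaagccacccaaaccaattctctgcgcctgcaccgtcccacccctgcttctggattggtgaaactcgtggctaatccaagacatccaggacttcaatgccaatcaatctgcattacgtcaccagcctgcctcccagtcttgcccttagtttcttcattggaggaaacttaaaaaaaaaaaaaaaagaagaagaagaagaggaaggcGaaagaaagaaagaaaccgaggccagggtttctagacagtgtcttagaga

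None of these 4 windows holds TGACTCA, the AP-1 motif, on either strand. It is in 5.2% of the 32851 mouse promoter windows in that table and in 2 of the 40 windows found for 37 of the 64 members. Those are Morrbid, where it spans the first transcribed base, and 1810058I24Rik, where it begins 86 bases before the start. Both hold it as TGAGTCA on the gene's strand, in capitals here with 20 bases on each side.
Morrbid: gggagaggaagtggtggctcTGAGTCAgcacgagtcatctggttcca
1810058I24Rik: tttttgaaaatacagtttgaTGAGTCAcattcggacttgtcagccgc
Morrbid, a regulator of myeloid cell lifespan, had 7.22, 8.14, 3.90 and 5.27 FPKM in the cFos libraries of clones 2, 4, 8 and 12, against 4.97, 9.23, 2.64 and 8.96 FPKM in the Luc libraries, with no order between the arms. 1810058I24Rik had 86.6, 93.4, 84.1 and 78.3 FPKM in cFos and 77.4, 65.1, 78.0 and 58.5 FPKM in Luc. It was higher with cFos in all 4 clones and its arms did not overlap, but it did not pass (log2 difference 0.30, limma adjusted p = 0.238). TGACGTCA, the cAMP response element, was in 3 member windows (Gas5, Snhg15 and 1300002E11Rik) and in 1.79% of all windows. The interferon-stimulated response element was in 1 (0610012G03Rik) and in 3.44% of all. None of these 4 genes passed the test.

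The coding genes beside the called members were set next to them, because a noncoding entry can share reads with a neighbour. The files do not say that strand was used in counting. E030011O05Rik (mm9 chr9:96631994-96653250) meets the start of Zbtb38, a zinc-finger repressor that binds methylated DNA, on the same strand. Zbtb38 averaged 15.97 ± 2.28 FPKM in cFos and 7.58 ± 2.30 FPKM in Luc (SD, n = 4 each), a rise of 1.06 on the log2 scale (limma adjusted p = 0.0233). On the other side, 12.7 kb away, the noncoding C430002N11Rik had 2.80, 8.05, 4.50 and 2.39 FPKM in the cFos libraries of clones 2, 4, 8 and 12, against 0.0168, 2.12, 0.208 and 0.358 FPKM in the Luc libraries. It fell short of the level rule and was looked at after its values were seen; its log2 difference was 2.24 (limma adjusted p = 0.0428), and clone 4 was again the highest line in both arms. Pxylp1, a phosphatase of glycosaminoglycan synthesis 70.5 kb away, averaged 40.1 ± 7.23 FPKM in cFos and 19.9 ± 6.06 FPKM in Luc (log2 difference 1.03, limma adjusted p = 0.0292). So 4 genes of this stretch of chromosome 9 were higher with cFos, Zbtb38 and Pxylp1 coding and the other 2 noncoding. Pxylp1 was also added after its values were seen. Shared reads of E030011O05Rik and Zbtb38, which meet on the same strand, cannot be told apart. Rasa2, the next coding gene on the Zbtb38 side and 100 kb from E030011O05Rik, averaged 4.92 ± 1.31 FPKM in cFos and 4.87 ± 0.363 FPKM in Luc. Its log2 difference was -0.01 (limma adjusted p = 0.979).

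Gm6548 (mm9 chr17:79249845-79251884) lies 6 bases past the 3′ end of Eif2ak2, the interferon-induced kinase PKR that senses double-stranded RNA. Eif2ak2 had 10.7, 11.7, 12.1 and 13.6 FPKM in the cFos libraries of clones 2, 4, 8 and 12, against 66.5, 42.7, 20.7 and 33.7 FPKM in the Luc libraries. These values are close to those of Gm6548 in each library. Eif2ak2 fell by 1.61 on the log2 scale (limma adjusted p = 0.0180), and the entry is 1 unspliced block of 2040 bases. A longer Eif2ak2 transcript and a separate RNA cannot be told apart here. Gpatch11, 2197 bases away on the other side of Gm6548, averaged 4.91 ± 0.615 FPKM in cFos and 4.29 ± 0.242 FPKM in Luc. It did not pass the test (log2 difference 0.17, limma adjusted p = 0.552).

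1110046J04Rik (mm9 chr13:34027901-34052050) lies within the span of Serpinb6a, a protease inhibitor gene on the other strand. Serpinb6a had 361, 326, 298 and 272 FPKM in the cFos libraries of clones 2, 4, 8 and 12, against 211, 202, 104 and 191 FPKM in the Luc libraries. Its log2 difference was 0.87 (limma adjusted p = 0.0617, and 0.037 with the clone as a block). Without strand, a share of Serpinb6a reads in the entry cannot be told apart from its own. Nqo2, 4478 bases from 1110046J04Rik, averaged 8.10 ± 1.13 FPKM in cFos and 7.21 ± 2.23 FPKM in Luc. This neighbour did not pass the test (log2 difference 0.19, limma adjusted p = 0.662).

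The neighbours of the other called members did not pass the test. A730063M14Rik (mm9 chr10:126507537-126508157) is 220 bases from Tspan31, a tetraspanin gene with 67.0, 65.0, 61.3 and 64.2 FPKM in the cFos libraries of clones 2, 4, 8 and 12, against 115, 79.8, 75.6 and 69.8 FPKM in the Luc libraries. It was lower with cFos in all 4 clones and the arms did not overlap (log2 difference -0.37, limma adjusted p = 0.235). Cdk4, the G1 kinase gene 3199 bases away, averaged 215 ± 19.6 FPKM in cFos and 293 ± 65.6 FPKM in Luc (-0.42, limma adjusted p = 0.204), and was lower with cFos in 4 of 4 clones. Pvt1 (mm9 chr15:61869542-62082530) is 47.6 kb from Myc, which averaged 38.8 ± 12.1 FPKM in cFos and 29.9 ± 8.66 FPKM in Luc (0.36, limma adjusted p = 0.549), and was higher with cFos in 4 of 4 clones. Wincr1 (mm9 chr4:88696211-88730514) is 52.8 kb from Mtap, a methionine salvage enzyme gene that averaged 82.7 ± 18.9 FPKM in cFos and 66.0 ± 22.01 FPKM in Luc (0.35, limma adjusted p = 0.493). Cdkn2a and Cdkn2b, the cell cycle inhibitor genes of that region, had log2 differences of -0.34 (limma adjusted p = 0.530) and -0.32 (limma adjusted p = 0.743). Over all members, 46 of 64 had a coding gene within 5000 bases and 20 overlapped one with at least 1 of their entries.

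**Figure D2:**
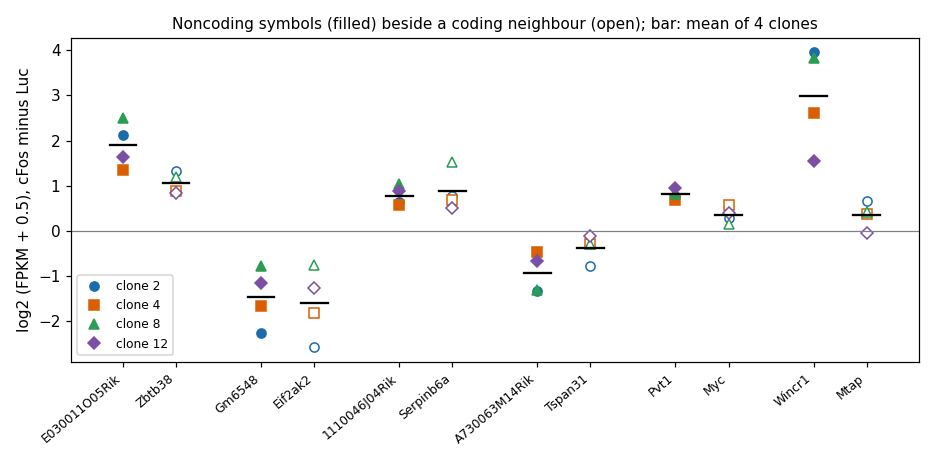
Log2 (FPKM + 0.5) in cFos minus Luc (y axis) for each called member (filled symbols) and a coding neighbour to its right (open symbols), 1 point per clone; bars are the mean of 4 clones. Zbtb38, Eif2ak2 and Serpinb6a sit on the same side of 0 as their noncoding neighbour in all 4 clones, as do Tspan31 and Myc, whose bars lie nearer 0 than those of A730063M14Rik and Pvt1; Mtap is above 0 in 3 of 4 clones.

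With the called members included, 15 members (23.4%) were higher in cFos in all 4 clones, where 15.4% of genes of this level were. Another 9 (14.1%) were lower in all 4, where 20.5% of genes were. The arms did not overlap for 8 members (12.5%) higher in cFos, where the background was 5.72%, and for 2 (3.1%) lower, where it was 7.72%. These include every called member, and the 2 lower ones are A730063M14Rik and Gm6548. Among the 56 members at the level in both arms, 9 (16.1%) were higher and 8 (14.3%) lower in all 4 clones, and the arms did not overlap for 4 (7.1%) higher and 1 (1.8%) lower. Dubr, an RNA studied in muscle differentiation, had 6.24, 6.004, 7.70 and 6.31 FPKM in the cFos libraries of clones 2, 4, 8 and 12, against 3.52, 4.12, 4.70 and 5.15 FPKM in the Luc libraries. The arms did not overlap, yet the log2 difference of 0.54 (SE 0.15) missed the threshold (limma adjusted p = 0.0826). 3110039M20Rik had 20.0, 14.3, 7.53 and 3.15 FPKM in the cFos libraries of clones 2, 4, 8 and 12, against 8.78, 9.83, 0.154 and 2.50 FPKM in the Luc libraries. It was lowest in the Luc library of clone 8, and it did not pass (log2 difference 1.39, limma adjusted p = 0.424).

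Of the members lower in every clone, those after the 2 called ones had small differences. Hyi, typed as a transcribed pseudogene, had 11.4, 5.31, 6.50 and 6.62 FPKM in the cFos libraries of clones 2, 4, 8 and 12, against 13.3, 6.25, 10.2 and 9.02 FPKM in the Luc libraries (log2 difference -0.36, limma adjusted p = 0.507). A coding entry for which no symbol was found has the same start and end, so the rule on coding entries did not remove Hyi. That entry averaged 0.132 FPKM in cFos and 0.0946 FPKM in Luc. 2010320M18Rik had 4.73, 7.52, 5.96 and 3.77 FPKM in cFos and 7.22, 8.43, 7.96 and 6.14 FPKM in Luc (-0.44, limma adjusted p = 0.279). The differences of Gm7367, Gm10052, Snhg15 and Oip5os1 lay between -0.43 and -0.22. In each of these 6 the arms overlapped.

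None of the other lncRNAs passed. Lockd, transcribed downstream of Cdkn1b, averaged 14.6 ± 3.46 FPKM in cFos and 17.5 ± 4.00 FPKM in Luc (log2 difference -0.25, limma adjusted p = 0.572). Bvht, studied in heart development, averaged 4.66 ± 1.25 FPKM in cFos and 5.44 ± 1.81 FPKM in Luc (-0.18, limma adjusted p = 0.749). The RNA of the Gt(ROSA)26Sor locus, widely used for transgenes because it is active in most tissues, averaged 7.90 ± 1.84 FPKM in cFos and 8.09 ± 0.747 FPKM in Luc (-0.05, limma adjusted p = 0.899). The differences of 1300002E11Rik, 2810025M15Rik, 9130221H12Rik, Lppos, Rab26os, Gm14403, 1700113A16Rik and Gm11747 lay between -0.09 and 0.46.

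**Figure D3:**
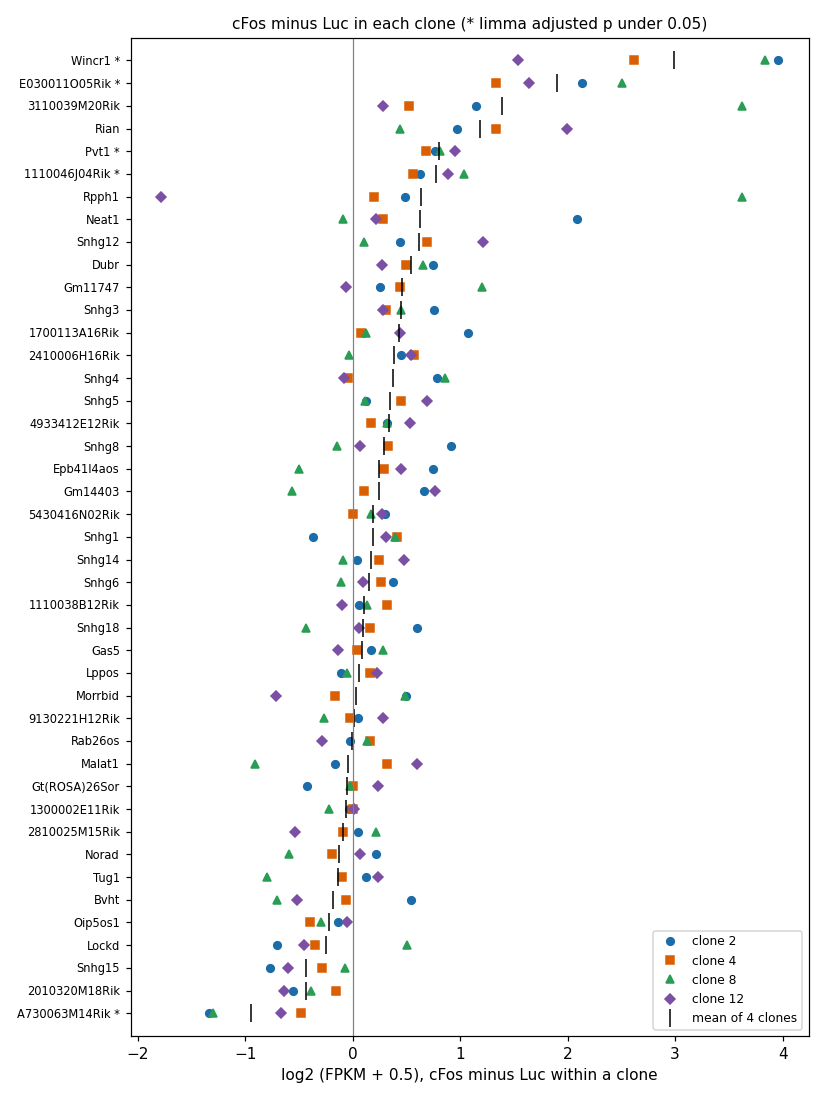
Log2 (FPKM + 0.5) in cFos minus Luc within each clone (x axis, 1 symbol per clone, bar for the mean of 4 clones) for the 42 lncRNAs and the RNase P RNA, ordered by mean. Asterisks mark limma adjusted p under 0.05. Most members lie within 1 log2 unit of 0 in every clone, Wincr1 and E030011O05Rik lie above 1 in all 4, and Rpph1 and 3110039M20Rik spread over more than 3 units.

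The list of snoRNA hosts had 13 members and may not hold every host, and Rian is described with the imprinted RNAs. The 13 were Snhg1, Snhg3, Snhg4, Snhg5, Snhg6, Snhg8, Snhg12, Snhg14, Snhg15, Snhg18, Gas5, Epb41l4aos and 2410006H16Rik. Limma called 0 of them, also under the clone block. At an unadjusted p under 0.05, 3 of the 13 were higher and 0 lower. Among the 8346 tested genes of the same level, 741 were higher and 923 lower at that p. Of the 13, 12 had a positive log2 difference and Snhg15 a negative one, where 42.6% of these 8346 genes had a positive one. The median of the hosts was 0.25, beside -0.05 over all tested genes of the same level and 0.06 for the 29 other lncRNA type members. By clone the median was 0.44, 0.29, -0.04 and 0.28 in clones 2, 4, 8 and 12, so clone 8 did not share it. Their FPKM summed to 515 to 677 in cFos libraries and 409 to 507 in Luc libraries. Without 2410006H16Rik, the highest of them, the other 12 summed to 336 to 444 in cFos libraries and 268 to 347 in Luc libraries, ranges that overlap.

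Snhg12 and Snhg3, which lie close together on chromosome 4, had the largest differences among the listed hosts. Snhg12 had 42.7, 41.7, 44.2 and 74.3 FPKM in the cFos libraries of clones 2, 4, 8 and 12, against 31.2, 25.6, 41.0 and 31.8 FPKM in the Luc libraries. Its arms did not overlap, but the cFos library of clone 12 stood apart and the 2 libraries of clone 8 were close (log2 difference 0.61, SE 0.22, limma adjusted p = 0.150). Snhg3 had 49.2, 35.0, 43.5 and 37.9 FPKM in cFos and 28.9, 28.1, 31.7 and 31.1 FPKM in Luc, also without overlap (0.45, SE 0.13, limma adjusted p = 0.0880). Trnau1ap, a selenocysteine tRNA factor gene 739 bases from Snhg12, averaged 22.7 ± 0.98 FPKM in cFos and 24.0 ± 2.22 FPKM in Luc, and Phactr4, 2238 bases from Snhg3, 10.2 ± 1.15 FPKM in cFos and 9.07 ± 1.57 FPKM in Luc.

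The third host with an unadjusted p under 0.05 was 2410006H16Rik, with 167, 208, 161 and 233 FPKM in the cFos libraries of clones 2, 4, 8 and 12, against 122, 141, 165 and 160 FPKM in the Luc libraries. Clone 8 again showed no rise. Snhg15 ran the other way, with 5.57, 9.19, 5.03 and 6.45 FPKM in cFos and 9.82, 11.3, 5.31 and 10.1 FPKM in Luc (-0.43, limma adjusted p = 0.397). Gas5, named for its rise in growth-arrested cells, averaged 19.1 ± 3.67 FPKM in cFos and 17.97 ± 3.30 FPKM in Luc (0.09, limma adjusted p = 0.83). The other hosts, Snhg4, Snhg5, Snhg6, Snhg8, Snhg14, Snhg18, Snhg1 and Epb41l4aos, had log2 differences from 0.09 to 0.38.

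**Figure D4:**
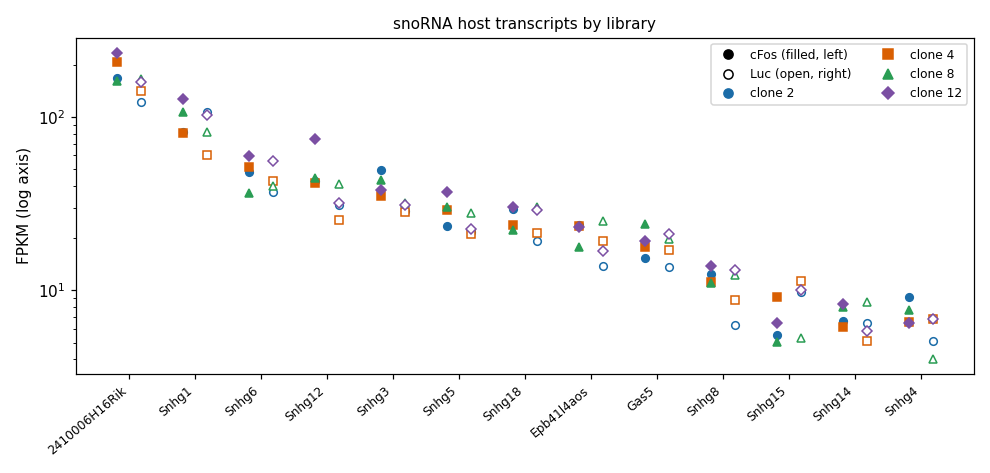
FPKM (y axis, log scale) of the 13 snoRNA hosts in each library, cFos filled and left, Luc open and right, with 1 colour and symbol per clone. Snhg12 and Snhg3 have all cFos points above all Luc points, and Snhg15 has its cFos points below the Luc point of the same clone.

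Host transcripts are known to start in a run of pyrimidines, the terminal oligopyrimidine tract that ties translation to growth signals. In the RefSeq windows, an unbroken run of at least 5 C or T letters through the first transcribed base was present in 5 of 11 host windows (45.5%) and in 10.1% of all 32851 windows. Letters were counted on both sides of that base, so a run can include letters that are not transcribed and is not the tract itself. The 11 windows belong to 10 of the 13 hosts, and Gas5 counts both with a run and without one. The 50 bases around the start are given for 4 hosts with a run and for Snhg3 and Snhg15, which have none; capitals mark the run. The stretches are chr4:132308658-132308707 (+) for Snhg12, chr11:62602857-62602906 (+) for 2410006H16Rik, chr3:123508307-123508356 (-) for Snhg8, chr15:32244633-32244682 (-) for Snhg18, chr4:132353657-132353706 (-) for Snhg3 and chr11:6528731-6528780 (-) for Snhg15, all in GRCm38.p6.
Snhg12: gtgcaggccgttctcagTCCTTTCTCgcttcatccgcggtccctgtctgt
2410006H16Rik: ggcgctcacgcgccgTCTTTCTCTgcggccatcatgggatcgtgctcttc
Snhg8: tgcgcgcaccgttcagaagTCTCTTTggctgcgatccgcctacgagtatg
Snhg18: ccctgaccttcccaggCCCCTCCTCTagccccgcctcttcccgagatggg
Snhg3: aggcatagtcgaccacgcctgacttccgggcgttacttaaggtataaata
Snhg15: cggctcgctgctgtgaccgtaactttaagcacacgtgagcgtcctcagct
Snhg12 and 2410006H16Rik, with runs of 9 letters, and Snhg3, with none, all had an unadjusted p under 0.05, while Snhg18, with a run of 10, differed by 0.09.

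The proteins that work on these RNAs were read from lists of known members. Of 13 snoRNP proteins 0 passed in either direction by limma, also with the clone block, and 11 of 13 differences were negative, where 41.7% of all tested genes had a positive difference. Nop56, a core box C/D protein, averaged 85.7 ± 10.3 FPKM in cFos and 87.9 ± 31.9 FPKM in Luc, and Snu13, which binds the same RNAs, 81.1 ± 6.54 FPKM in cFos and 99.7 ± 13.99 FPKM in Luc. Of 15 nonsense-mediated decay factors 0 passed, and 13 of 15 differences were negative (median -0.26). Among them Eif4a3, a helicase of the exon junction complex, averaged 57.0 ± 8.17 FPKM in cFos and 67.6 ± 12.5 FPKM in Luc.

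Neat1, Malat1, Norad and Tug1, long RNAs of which the first and second stay in the nucleus, did not pass the test. Neat1, the scaffold of paraspeckles, had 82.1, 62.3, 59.0 and 34.1 FPKM in the cFos libraries of clones 2, 4, 8 and 12, against 19.001, 51.1, 62.9 and 29.4 FPKM in the Luc libraries. The arms overlapped, and clone 2 alone differed strongly, by 2.08 on the log2 scale against -0.09 to 0.28 in the others (log2 difference of the arms 0.62, SE 0.39, limma adjusted p = 0.419). Malat1, a nuclear speckle RNA, had 60.9, 66.0, 59.2 and 68.8 FPKM in cFos and 68.5, 52.99, 112 and 45.4 FPKM in Luc. Tug1, an RNA found in nucleus and cytoplasm, had 34.6, 32.0, 26.9 and 44.7 FPKM in cFos and 31.6, 34.2, 47.1 and 38.0 FPKM in Luc. Malat1, Norad and Tug1 were each highest in the Luc library of clone 8. The authors' intervals for Neat1, Malat1 and Norad were separate between the libraries of all 4 clones, so the differences within clones exceed the estimation error while their directions vary.

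Limma called 0 of 13 paraspeckle proteins, with 12 of 13 differences negative (median -0.25). Hnrnpk, an RNA-binding protein, averaged 308 ± 17.3 FPKM in cFos and 332 ± 41.7 FPKM in Luc, and Nono, a core paraspeckle protein, 164 ± 16.4 FPKM in cFos and 195 ± 19.04 FPKM in Luc. Of 8 nuclear speckle proteins 0 passed, and all 8 differences were negative (median -0.20). Srsf5 averaged 185 ± 25.6 FPKM in cFos and 195 ± 47.4 FPKM in Luc, and Srsf3 93.9 ± 7.40 FPKM in cFos and 110 ± 12.4 FPKM in Luc; both are splicing factors. These medians stand beside a median of -0.06 over all 11161 tested genes.

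The imprinted RNA Rian differed between clones. It is transcribed from the maternal allele of the Dlk1-Meg3 domain on chromosome 12 and carries snoRNAs. It had 3.48, 9.10, 55.8 and 14.5 FPKM in the cFos libraries of clones 2, 4, 8 and 12, against 1.54, 3.31, 40.9 and 3.26 FPKM in the Luc libraries. Clone 8 was far above the other lines with either virus, and its mean of 48.4 FPKM was 19.3 times that of clone 2. In a limma F test of the clone terms with the arm in the model, Rian was the 1 member of 64 that passed (adjusted p = 0.0371), where 0.484% of all tested genes did. Without 1 library the count was 0 to 2. It was 0 without cFos clone 2, 4 or 12 or Luc clone 2, 4 or 12, and 2 without cFos clone 8, which added 3110039M20Rik. In each of these fits the clone that lost a library is left with 1, which is assumed to vary like the others.

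Within clones, Rian was higher with cFos in 4 of 4. The log2 difference was 0.97, 1.33, 0.44 and 1.99 in clones 2, 4, 8 and 12. Between the arms without a clone term the difference of 1.18 (SE 1.02) was not called (limma adjusted p = 0.575), and with the clone as a block it was (limma adjusted p = 0.0355), although 3 cFos libraries and 1 Luc library brought Rian past the level rule. The block called 5 members higher and 2 lower, where 4.51% of all genes were called higher and 4.28% lower. Meg3, from the same domain and left out by the selection, had 1.08, 2.92, 15.8 and 4.02 FPKM in cFos and 0.791, 1.10, 26.4 and 1.28 FPKM in Luc, with clone 8 the highest in both arms and the arms in the other order there (limma F test of the clones, adjusted p = 0.0659). Snhg14, the other imprinted member, had 6.70, 6.15, 8.05 and 8.35 FPKM in cFos and 6.50, 5.14, 8.61 and 5.87 FPKM in Luc.

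After Rian, the 5 members of smallest clone p did not pass. They were Hyi (limma F test, adjusted p = 0.154), E030011O05Rik (0.167), 4933412E12Rik (0.174), Wincr1 (0.218) and 5430416N02Rik (0.244). Hyi was highest in clone 2, with 11.4 FPKM in cFos and 13.3 FPKM in Luc. 4933412E12Rik was lowest in clone 8, with 5.44 FPKM in cFos and 4.26 FPKM in Luc, against 8.62 to 10.2 FPKM in the other cFos libraries and 6.90 to 8.06 FPKM in the other Luc libraries. 5430416N02Rik was also lowest in clone 8, with 5.96 FPKM in cFos and 5.26 FPKM in Luc.

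**Figure D5:**
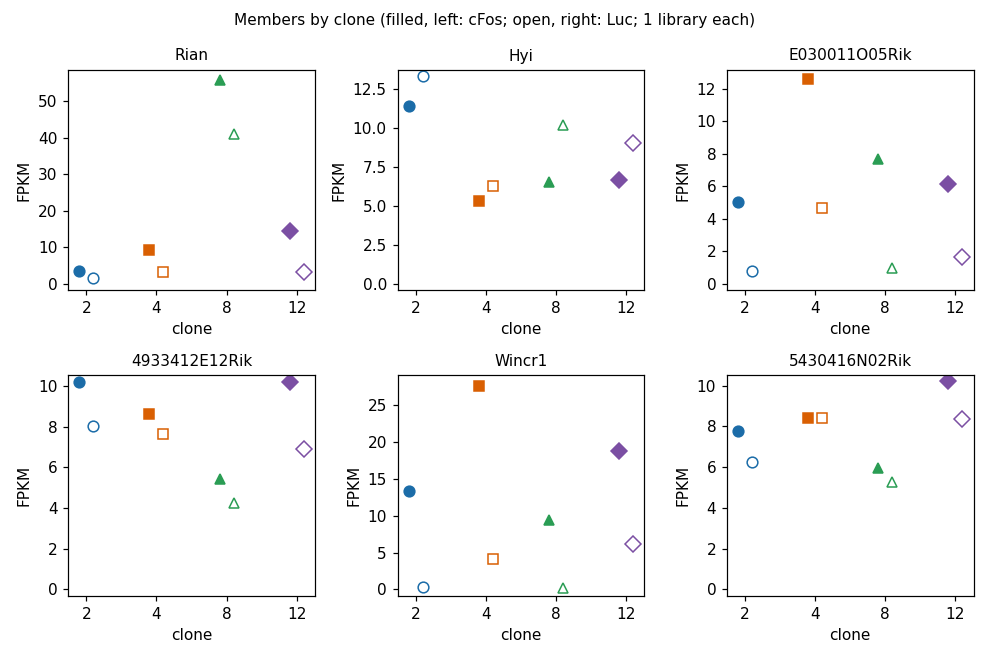
FPKM (y axes, linear, 1 scale per panel) by clone (x axis) of the 6 members with the smallest p for a clone difference; filled symbols on the left are cFos and open symbols on the right are Luc, 1 library each. Rian is high in clone 8 with both viruses, and E030011O05Rik is highest in clone 4 with both.

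The remaining members were the RNase P RNA, the pseudogenes and the 4 symbols now typed as coding. Rpph1, the catalytic RNA of RNase P, is not polyadenylated and so is poorly caught by this selection of RNA. It had 6.82, 8.85, 19.2 and 2.96 FPKM in the cFos libraries of clones 2, 4, 8 and 12, against 4.72, 7.64, 1.11 and 11.4 FPKM in the Luc libraries. The clones disagreed in direction (limma adjusted p = 0.653), and 0 of 9 tested RNase P and MRP proteins passed; Pop4 averaged 30.9 ± 4.11 FPKM in cFos and 31.1 ± 10.5 FPKM in Luc, and Rpp30 16.8 ± 3.01 FPKM in cFos and 17.9 ± 4.32 FPKM in Luc. Of 7 proteins of the 7SK complex 0 passed, with Larp7 at 27.3 ± 1.98 FPKM in cFos and 25.9 ± 3.80 FPKM in Luc, and Cdk9 at 21.0 ± 2.92 FPKM in cFos and 19.5 ± 2.91 FPKM in Luc. Among the 17 pseudogenes the median log2 difference was -0.05, and Gm6548 was the 1 called. Of the 4 coding-type symbols 0 passed. Gm2115, the most variable of them, had 16.2, 13.8, 23.5 and 35.1 FPKM in cFos and 2.07, 15.3, 5.12 and 25.7 FPKM in Luc (log2 difference 1.27, limma adjusted p = 0.328).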

How the data were processed

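The 4 cFos and 4 Luc libraries were prepared from polyadenylated RNA with an Illumina TruSeq kit, according to the labels. Per the submitters' processing notes, the tools were CASAVA 1.8.2, TopHat and Cufflinks and the build was mm9; other settings are not stated in the sources at hand. The authors' deposited tables give, per the file headers, FPKM with confidence limits, coverage (a signal used only to estimate depth) and transcript length for each RefSeq entry. Cufflinks splits reads between entries by a model, so similar genes can trade reads. No read counts are in these tables.

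Symbols came from RefSeq for 30227 of 30769 entries and from GENCODE for 180; 362 had none, and 13 noncoding ones among them that reach the level are not analysed here. Genes were tested with limma 3.58.1 in R 4.3.3 (mean-variance trend) on log2(FPKM + 0.5), at 1 FPKM or more in at least 4 of 8 libraries, two-sided, Benjamini-Hochberg adjusted over all 11161 genes. That scale understates changes of low genes. The clone test was an F test of clone terms beside the arm. The fit was tested on simulated data. Alternatives were another pseudocount (0.1 or 1), other filters, median scaling, the entry of highest mean, other level rules, each library left out, and the clone as a block. Deviations of the 2 libraries of a clone correlated at 0.174, 0.593, 0.349 and 0.437 in clones 2, 4, 8 and 12, and the labels give the same clonal line, so they are pairs.

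Members and gene lists were chosen with earlier results of these data known. Named are called members, the 10 of highest mean, members of known role, up to 8 in each direction with 1 sign in all clones, those at the level limit, the 6 of smallest clone p, coding neighbours within 5000 bases, and called or else the 2 highest genes of each protein list; Myc, Mtap, Pxylp1, C430002N11Rik, Meg3 and other genes outside this rule were added after their values were seen. Promoter windows are RefSeq's in GRCm38.p6, from 250 bases before to 50 after the start; other coordinates are mm9, counted from 1. Python 3.11.15 was used for tables. The coding neighbour of 1 named member is not reported here.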

Additional observations from a re-analysis of the deposited data

Results flagged for a closer look

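Among 128 groups of 4 libraries (64 members in each arm), 6 held a library far from the other 3, and chance flags about 1 in 20 groups. Rian had 40.9 FPKM in the Luc library of clone 8, where the other Luc libraries had at most 3.31. Snhg12 had 74.3 FPKM in the cFos library of clone 12, with 44.2 the next highest. Epb41l4aos had 17.7 FPKM in the cFos library of clone 8, below 23.2 in the nearest. Rab26os had 23.7 FPKM in the cFos library of clone 2, above 19.4 in the nearest. 5830417I10Rik had 7.53 FPKM in the cFos library of clone 12, above 5.67 in the nearest. Gm11747 had 3.7 FPKM in the Luc library of clone 8, below 5.37 in the nearest.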

How the results depend on the processing

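No difference of a called member changed sign under any alternative run. The counts, 4 higher, 2 lower and 1 differing between clones, moved as follows. With no filter on low genes, 23497 genes were tested and all 3 counts were 0 (9 higher and 3 lower at an unadjusted p under 0.05); the fit then holds many genes near 0. With a minimum of 5 FPKM over all genes the clone count was 0 and Pvt1 missed (adjusted p = 0.0507). Median scaling left 1 lower, as A730063M14Rik reached 0.0586, and a pseudocount of 0.1 lost Wincr1 (0.0688). With members at 1 FPKM or more, 201 symbols gave 6 higher, 2 lower and 2 clone differences; with members at 5 FPKM or more in all 8 libraries, 41 symbols gave 0 higher, 1 lower and 0 clone differences. The lncRNA type alone, chosen after seeing the data, gave 4 higher and 1 lower. Leaving out each library gave 0 to 2 higher, 0 to 2 lower and 0 to 2 clone differences. The replicate block (the clone, which pairs the libraries) gave 5 higher and 2 lower, adding Rian and losing none. With 4 clones and no read counts, low symbols are limited by depth to an unknown extent.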
